A study of Mus musculus with 9 samples.

Results

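Binding of the glucocorticoid receptor (GR) near 8 genes linked to breakdown of the follicle wall was examined in mouse granulosa cells, the somatic cells that surround the oocyte. The genes were chosen by name, with earlier results of these data known. They are Plat, Plau, Plaur, Serpine2, Mmp2, Mmp19, Timp1 and Timp3, or 8 of the 21887 protein-coding genes of the gene table. For each gene, peaks were collected from the gene and the 50 kb on either side of it, called its window here. All 8 genes were found in the table.

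Granulosa cells came from wild-type CBA x C57BL/6 F1 mice aged 21 days. The GR libraries at 6 h (n = 2) were from mice injected with 5 IU of eCG, equine chorionic gonadotropin, which stimulates follicle growth. After 44 h these mice received 5 IU of hCG, human chorionic gonadotropin, which acts like the ovulatory surge of luteinising hormone, and they were killed 6 h after it. The GR libraries at 0 h (n = 2) and the single library for H3K27ac, the acetylation of histone H3 at lysine 27 found at active regulatory DNA, were from mice given the same eCG and killed at 44 h without hCG. GR was not mapped at the later time in mice without hCG, so hCG cannot be told apart from the later time or the second injection, and the labels do not say whether replicates came from separate mice, so each p-value reflects only how these libraries vary, possibly for technical reasons. The other 4 of the 9 samples were not analysed here.

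The extracellular matrix of the follicle wall is taken apart before the oocyte is released. Plasminogen activators turn plasminogen into the broad protease plasmin, which in turn can activate matrix metalloproteinases, and each step is held back by its own inhibitors. Plat encodes tissue-type and Plau urokinase-type plasminogen activator, Plaur encodes the urokinase receptor, and Serpine2 encodes protease nexin-1, an inhibitor of plasminogen activators and thrombin. Mmp2 and Mmp19 encode matrix metalloproteinases, and Timp1 and Timp3 encode tissue inhibitors of metalloproteinases. GR is a steroid receptor that binds DNA when it carries a glucocorticoid, and a peak shows occupancy and not a change in the gene's output.

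The label of the cells was checked against H3K27ac at marker genes, in the single 0 h library of the mark. The GR libraries were not checked in this way. Each of 10 granulosa cell genes had an H3K27ac peak inside the gene or within 1 kb, with 1 to 22 peaks per gene and a median of 4.5. Of the other marker lists, 2 of 6 theca and stroma genes, 2 of 5 endothelial genes, 2 of 6 leukocyte genes and 1 of 6 oocyte genes had such a peak. The median was 0 peaks per gene in each of these lists, and the highest numbers were 6, 3, 1 and 2 in the same order. At 6 h the GR lists contained 14748 and 10588 peaks, at 0 h they contained 10119 and 9728, and the H3K27ac list contained 37460. Read depth is unknown here. A site without a peak was below the authors' threshold in that library, which is not evidence that GR was absent, and the first 6 h list is the longest.

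The upstream sequence of the 3 members with H3K27ac or GR next to a known start of transcription is shown because the results on the inhibitors turn on these starts. Each run is the 250 bases before the start, from RefSeq on build GRCm38.p6, read 5′ to 3′ along the gene. Capitals mark matches to 9 short motifs on either strand. The Serpine2 run is chr1:79858666-79858915 on the minus strand, the Timp3 run is chr10:86300162-86300411 on the plus strand and the Timp1 run is chrX:20869916-20870165 on the plus strand.
Serpine2: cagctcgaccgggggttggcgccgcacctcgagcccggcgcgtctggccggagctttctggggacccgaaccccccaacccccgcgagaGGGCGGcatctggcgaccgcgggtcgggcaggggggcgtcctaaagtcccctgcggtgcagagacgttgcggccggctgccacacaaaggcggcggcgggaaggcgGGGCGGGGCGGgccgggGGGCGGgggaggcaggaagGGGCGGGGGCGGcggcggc
Timp3: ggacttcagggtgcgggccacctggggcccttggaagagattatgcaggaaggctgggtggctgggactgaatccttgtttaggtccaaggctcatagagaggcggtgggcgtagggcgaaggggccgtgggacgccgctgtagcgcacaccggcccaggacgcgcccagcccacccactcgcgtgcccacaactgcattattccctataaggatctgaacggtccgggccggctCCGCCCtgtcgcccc
Timp1: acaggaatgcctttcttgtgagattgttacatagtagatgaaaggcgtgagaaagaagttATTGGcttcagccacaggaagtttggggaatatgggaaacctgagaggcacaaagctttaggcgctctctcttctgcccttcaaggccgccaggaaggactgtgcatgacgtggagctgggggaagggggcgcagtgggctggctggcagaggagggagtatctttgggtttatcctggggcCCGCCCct
Of the 9 motifs, the single GR site AGAACA, the core of the GR palindrome ACANNNTGT, the AP-1 site TGANTCA, the cyclic AMP response element TGACGTCA, the NR5A site AAGGTCA, the RUNX site TGTGGT and the TATA box TATAAA had no match in these 3 runs. The GC box GGGCGG had 6 matches in Serpine2, 1 in Timp3 and 1 in Timp1. Some of the 6 lie end to end or overlap by a base. Timp1 also had 1 match to CCAAT. This match and the GC boxes of Timp3 and Timp1 were on the opposite strand, and those of Serpine2 on the strand shown. Among 21263 upstream runs of protein-coding genes of the same length, 42.6% hold the GC box, 35.4% CCAAT, 13.7% the single GR site, 5.19% the palindrome core, 6.13% the AP-1 site, 1.92% the cyclic AMP element, 3.59% the NR5A site, 12.4% the RUNX site and 11.6% the TATA box. The GC content was 78.8% for Serpine2, 65.6% for Timp3 and 54.4% for Timp1, beside a median of 55.6% over all runs. A match is a description of the letters and not a measured site, and the missing matches say nothing of binding outside these runs. The summits of the GR peaks at the starts of Serpine2 and Timp3 lay outside them. They were 110 to 164 bp and 157 to 170 bp downstream of the start, where the sequence was not searched. Timp1 had no GR peak.

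GR bound near 6 of the 8 genes, and the genes differed widely in how much. Overlapping peaks of the 4 GR lists (by at least 1 bp) were joined into loci, and 25 loci fell in the windows, each in that of 1 member. Serpine2 had 8 loci, Plau 7, Mmp19 6, Plat 2, Plaur 1 and Timp3 1, while Mmp2 and Timp1 had none. Over all protein-coding genes, 68.8% had a locus in the window, so 6 of 8 is close to the background, and the median number of loci was 1.5 for the 8 genes and 2 for all genes.

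**Figure D1:**
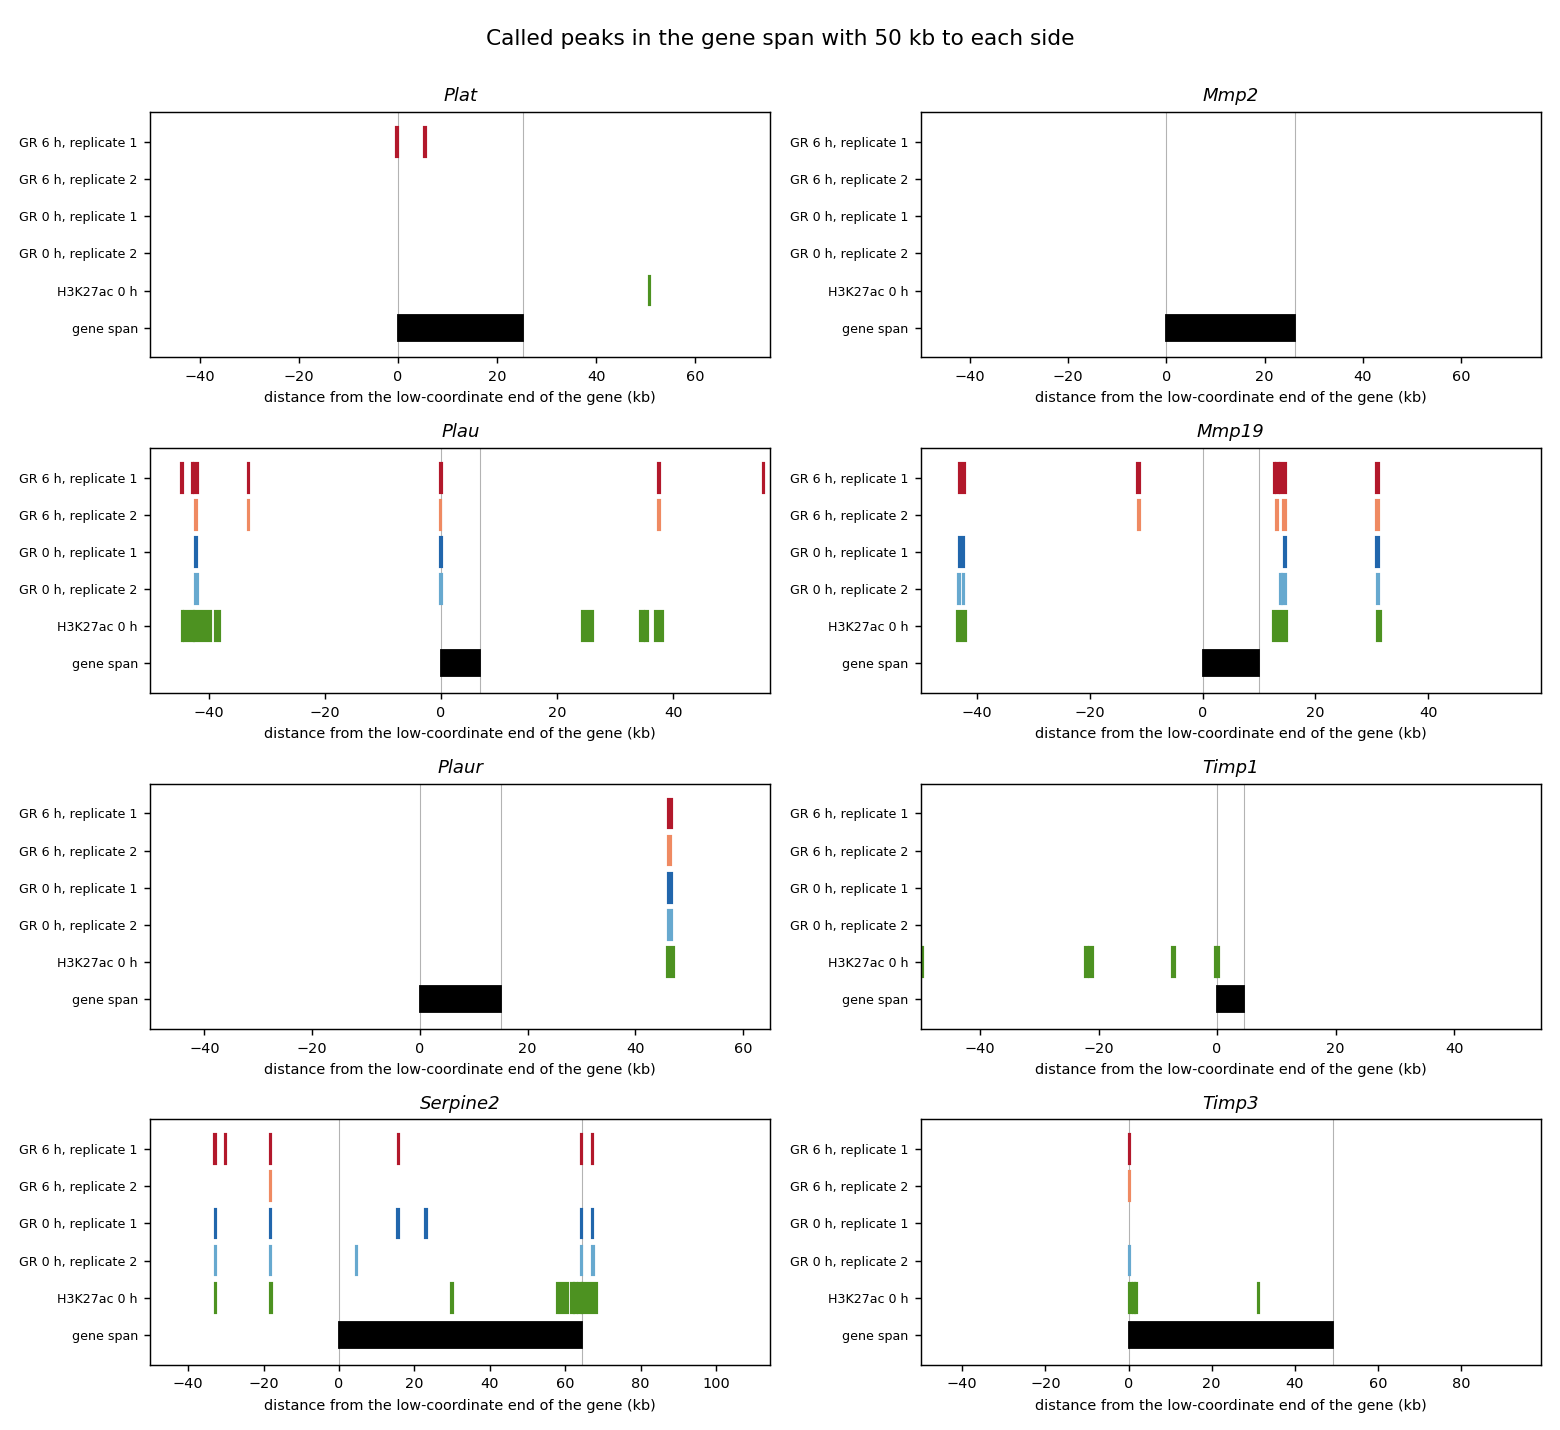
Peaks called in each window, drawn to scale by distance from the low-coordinate end of the gene in kb (x axis), with 1 row for each GR library, 1 for H3K27ac and a black bar for the gene. Every GR peak near Plat is in the first 6 h library. Plau and Mmp19 each have 2 loci with peaks in both 6 h libraries and none at 0 h. Both of these windows also hold loci called at both times. The window of Mmp2 is empty.

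Only 2 of the 8 genes, Plau and Mmp19, had a locus called by each 6 h library and by no 0 h library, termed only at 6 h, and each had 2. Over all protein-coding genes, 16.5% had such a locus in the window. No member had a locus of the reverse kind, termed only at 0 h, beside 6.78% of all genes. A locus in all 4 libraries lay near 4 members, Plau, Plaur, Serpine2 and Mmp19, beside 45.5% of all genes. Whatever the other time showed, 5 members had a locus shared by the 6 h libraries (52.6% of all genes) and 4 had one shared by the 0 h libraries (56.1%). These counts are near the background, and nothing particular to the 8 genes is read from them. Without the second 6 h library, 4 members had a locus only at 6 h, Plat and Serpine2 in addition. Without the first 6 h library, 2 members (Mmp19 and Serpine2) had a locus only at 0 h, and without the first or the second 0 h library 1 member (Serpine2) did.

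**Figure D2:**
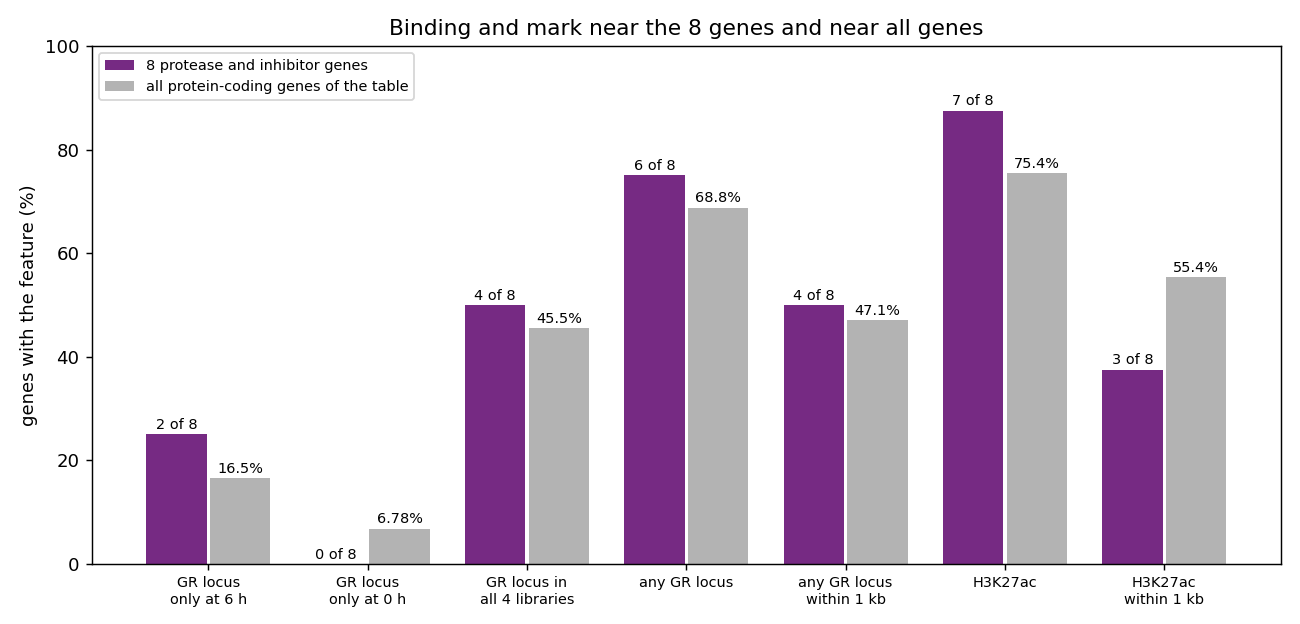
Share of genes in percent (y axis) with each kind of GR locus or H3K27ac peak in the window, or inside the gene or within 1 kb of it, for the 8 genes (purple, with the count) and for all 21887 protein-coding genes (grey). The purple bars stay near the grey ones for GR, and 3 of 8 members have H3K27ac at the gene itself, beside 55.4% of all genes.

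The number of GR peaks in the 8 windows did not differ between the times beyond the spread of the libraries. There were 23 and 11 peaks in the 6 h libraries and 13 and 14 in the 0 h libraries, or 17.0 ± 8.49 and 13.5 ± 0.707 (mean ± SD, n = 2 each). This difference, 3.5 peaks, had an exact permutation p of 1.0, two-sided, where the smallest possible p with 2 against 2 libraries is 0.33. Without the first 6 h library the difference was −2.5 peaks and without the second 9.5, and with lists cut to an equal length it was −1.0, so its direction rests on the first 6 h library. As a share of each list, the windows held 0.156% and 0.104% at 6 h, against 0.129% and 0.144% at 0 h.

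The first 6 h library called 23 of the 25 loci and the second 11, and the second called no locus that the first did not. Over all 18584 loci, 7.52% were called by the second 6 h library alone. A further 0.312%, 0.264% and 0.312% were called by it with the first, the second and both 0 h libraries. Neither 6 h library called 5.0% (first 0 h library alone), 4.68% (second alone) and 4.15% (both). Of the 25 loci, 7 (28.0%) were called by the first 6 h library alone, beside 15.7% of all 18584 loci, and they lay near 4 members (Plat, Plau, Serpine2 and Mmp19), where 23.9% of all genes had such a locus. Another 4 (16.0%) were called by the first 6 h library and both 0 h libraries, beside 9.85% of all loci. The 4 loci only at 6 h made up 16.0% and the 6 loci in all 4 libraries 24%, beside 15.1% and 27% of all loci.

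**Figure D3:**
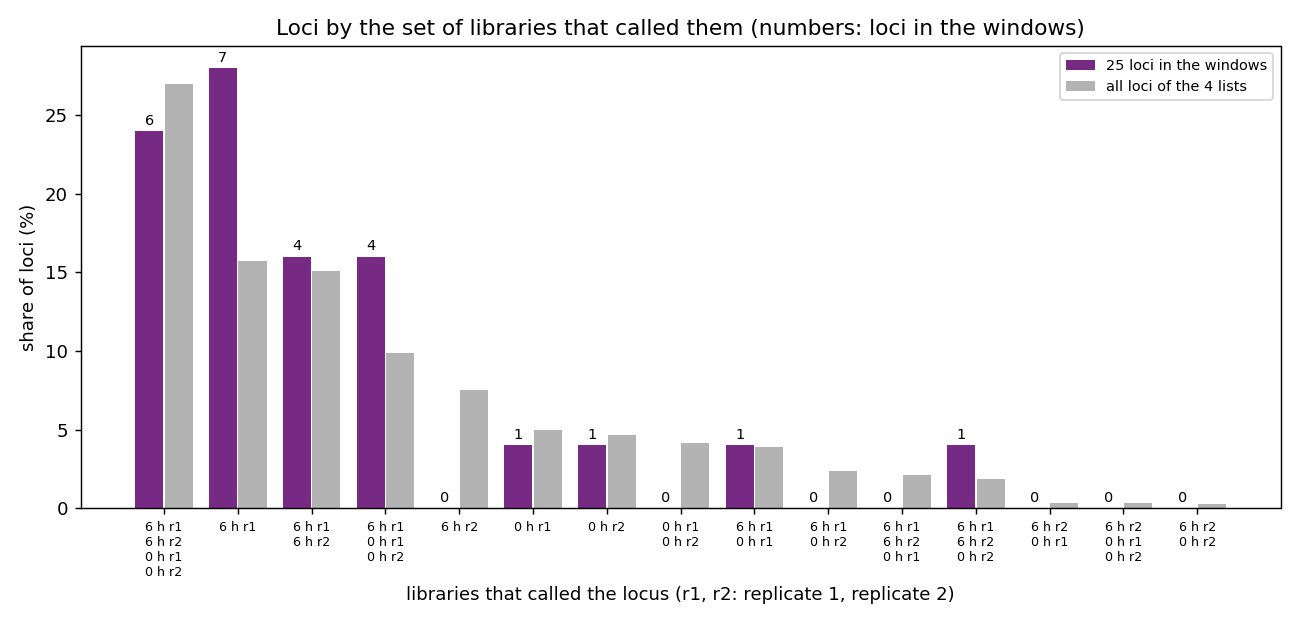
Share of loci in percent (y axis) by the set of libraries that called them (x axis), for the 25 loci of the windows (purple, with counts) and for all 18584 loci (grey). Sets that hold the first 6 h library make up 23 of the 25 loci. Over all loci, each set without that library makes up 0.264% to 7.52%.

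The activators of plasminogen came out differently from each other. Plat (chromosome 8, 22757722 to 22782848 of mm10) had 2 GR loci, both over the gene and both in the first 6 h library alone. Locus 1 (22757305 to 22757764) crosses the low-coordinate end of the gene, with a fold enrichment of 6.37 as given by the authors' peak caller. Locus 2 (22762891 to 22763319) lies inside the gene, 5169 bp from that end, with 7.75. Ranked by p-value, they stood at 89.1% and 50.1% of the list, where 100% is the weakest peak. Neither lay in H3K27ac, and the 1 H3K27ac peak of the window was 200 bp wide and 25514 bp from the gene. The second 6 h library and both 0 h libraries called nothing in the window, so Plat had 2 and 0 peaks at 6 h and 0 and 0 at 0 h (exact permutation p = 1.0).

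Plau (chromosome 14, 20836662 to 20843388) had the most peaks at 6 h of the 8 genes on average. Its window held 7 and 4 peaks in the 6 h libraries and 2 and 2 in the 0 h libraries, so the times did not overlap. The exact permutation p was 0.33, the smallest possible. Over all genes, 10.9% had more peaks in each 6 h library than in each 0 h library, and by peaks Plau was the only member to do so. A locus can hold several peaks of a library, and counted by loci called, a count added after the data were seen, Plau had the same values and Mmp19 also had more in each 6 h library. By loci, 10.7% of all genes did. No member had fewer peaks in each 6 h library than in each 0 h library, beside 3.66% of all genes.

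The locus at the Plau gene itself was called at both times. Locus 5 (20836447 to 20836869) crosses the low-coordinate end of the gene and had fold enrichments of 8.14 and 4.71 at 6 h and 7.14 and 5.66 at 0 h. The values of the times overlap, and they are set within each list and do not measure a change. The 4 summits lay within 68 bp of each other. It was a peak of middle to lower rank, at 44.4% and 80.4% of the 6 h lists and 54.2% and 69.3% of the 0 h lists. The locus lay outside H3K27ac, 24036 bp from the nearest peak of the mark, whereas 4933 of the 5012 loci in all 4 libraries lay in the mark and 79 outside it. Of the 5066 genes with a locus in all 4 libraries inside the gene or within 1 kb, 21 (0.0959% of all genes) had no H3K27ac there. Plau, singled out after its values were seen, was among them.

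The loci only at 6 h near Plau lay away from the gene. Locus 6 (20874098 to 20874396) lay 30710 bp past the high-coordinate end of Plau, which was the nearest gene, and in an H3K27ac peak 1421 bp wide. At 6 h it had fold enrichments of 7.98 and 6.88, at 30.4% and 27.3% of their lists. Locus 4 (20803457 to 20803695) lay on the other side, 32967 bp from Plau and 9300 bp from Camk2g, outside the mark, with 9.58 and 7.29. Neither 0 h library called a peak at these sites.

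The remaining loci of the Plau window lay nearer to other genes. Locus 3 (20794218 to 20794813) was called in all 4 libraries, with 10.3 and 7.28 at 6 h and 8.69 and 9.09 at 0 h, and lay 61 bp from Camk2g, the gene of a calmodulin-dependent kinase subunit, in the widest H3K27ac peak of the window (2961 bp). Loci 1 and 2 lay inside Camk2g and locus 7 lay 36990 bp from Vcl. These 3 were called by the first 6 h library alone, with 6.44, 8.55 and 5.53. The window held 8 H3K27ac peaks over 10162 bp, and none was closer to Plau than 17517 bp.

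Plaur (chromosome 7, 24460937 to 24475970), the urokinase receptor gene, had a single locus. The locus (24506940 to 24507754) had fold enrichments of 17.0 and 8.19 at 6 h and 9.37 and 13.3 at 0 h. Its value was the highest of the 25 loci in each 6 h library, while at 0 h Mmp19 locus 5 (9.78) was higher in the first library and Timp3 (13.6) in the second. The replicates differed more than the times, and the ranges of the times overlap. It stood at 7.90% and 32.2% of the 6 h lists and 41.7% and 14.6% of the 0 h lists. It lay 30970 bp from Plaur and inside Zfp428, a zinc finger gene, and wholly within the 1 H3K27ac peak of the window (1420 bp). Plaur itself had neither GR nor H3K27ac inside the gene or within 1 kb.

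**Figure D4:**
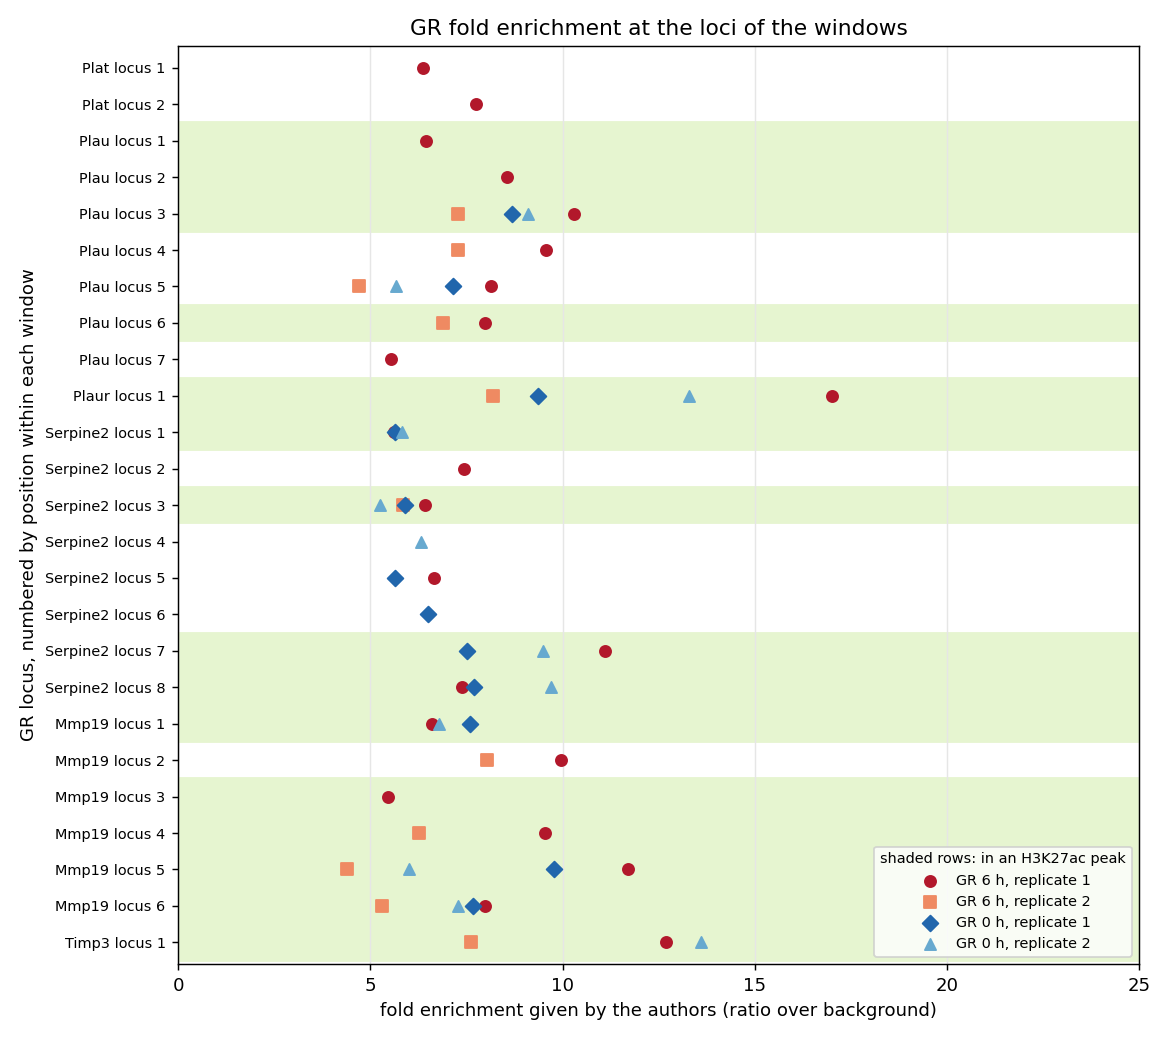
Fold enrichment given by the authors (x axis, ratio over background) at each of the 25 loci (y axis), with 1 mark for each library that called the locus and shading where the locus lies in an H3K27ac peak. The highest value is 17.0 at the Plaur locus in the first 6 h library, and Serpine2 loci 7 and 8 carry marks of the first 6 h and both 0 h libraries only.

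Serpine2 (chromosome 1, 79794317 to 79858665, minus strand), the inhibitor of plasminogen activators, had the most loci and the most H3K27ac in the longest window, 164.3 kb. Per 100 kb of window it had 4.87 loci, fewer than Plau (6.56) and Mmp19 (5.46). Per kb it had 62.8 bp of H3K27ac, less than Plau (95.2) and more than Mmp19 (42.1). Its window held 6 and 1 peaks at 6 h and 6 and 5 at 0 h. The first 6 h library matched the 0 h libraries and the second stood apart, so the times overlapped (exact permutation p = 1.0). Of the 9 H3K27ac peaks, 7 lay inside the gene or within 1 kb, and the widest (4069 bp) began 106 bp upstream of it. Together the mark covered 10317 bp of the window, beside a median of 2528 bp over all genes.

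GR sat on both sides of the Serpine2 start of transcription, whose upstream sequence is printed above. Locus 7 (79858387 to 79858689) covers the start, but only through the peak of the first 6 h library. The 0 h peaks end just inside the gene, at 79858663 and 79858660. The locus had 11.1 in the first 6 h library, none in the second, and 7.52 and 9.48 at 0 h. Its summits lay 110 bp downstream of the start in the first 6 h library and 164 and 136 bp downstream in the 0 h libraries. Locus 8 (79861345 to 79861827) lay 2680 bp upstream of the gene, in the widest H3K27ac peak, with 7.38 in the first 6 h library, none in the second, and 7.70 and 9.71 at 0 h. Both loci were of middle rank, 28.2% and 54.3% of the first 6 h list and 22.2% to 47.9% of the 0 h lists. The missing calls come from the second 6 h library alone, so neither locus counts as lost at 6 h.

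Inside Serpine2 there were 3 more loci, all outside H3K27ac and all among the weakest peaks of their lists. Locus 4 (79798868 to 79799067) was called by the second 0 h library alone, with 6.32. Locus 5 (79809572 to 79810147) was called by the first 6 h library, with 6.66, and by the first 0 h library, with 5.63. Locus 6 (79817215 to 79817647) was called by the first 0 h library alone, with 6.50. They stood at 90.6% to 96.3% of their lists, and none was shared by the libraries of the same time.

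The only locus of the Serpine2 window in all 4 libraries lay at other genes. Locus 3 (79775896 to 79776385) covers the overlapping ends of Wdfy1 and Mrpl44, the gene of a mitochondrial ribosomal protein, 17932 bp from Serpine2. Its fold enrichments were 6.42 and 5.86 at 6 h and 5.89 and 5.24 at 0 h, an overlap of the times. Locus 1 (79761271 to 79761746), inside Wdfy1 and in H3K27ac, had 5.62 in the first 6 h library and 5.64 and 5.81 at 0 h. Locus 2 (79764064 to 79764323), also inside Wdfy1, was called by the first 6 h library alone, with 7.44.

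Neither metalloproteinase gene had GR or H3K27ac inside the gene or within 1 kb, and their windows differed. Mmp2 (chromosome 8, 92827290 to 92853421), which encodes a gelatinase, had no GR peak in any library and no H3K27ac peak in its window, beside 23.4% of all genes with neither. The nearest H3K27ac peak was 468914 bp away and the nearest GR locus 469347 bp. Of 21631 genes on chromosomes with the mark, 5.51% were as far or farther from it.

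Mmp19 (chromosome 10, 128790910 to 128800827) had no peak inside the gene or within 1 kb, but 6 loci in its window. There were 6 and 4 peaks at 6 h and 4 and 5 at 0 h, an overlap (exact permutation p = 1.0). The 0 h libraries split some loci into several peaks, and by loci called there were 6 and 4 at 6 h and 3 and 3 at 0 h, which do not overlap (exact permutation p = 0.33, the smallest possible). Locus 2 (128779328 to 128779735) was only at 6 h, 11175 bp from Mmp19, which was the nearest gene. Its fold enrichments were 9.97 and 8.04, at 34.5% and 35.8% of the lists. It lay outside any gene and 23716 bp from H3K27ac.

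The other loci of the Mmp19 window lay at its close neighbours, 7 protein-coding genes being in the window with Mmp19 itself. A single H3K27ac peak of 2376 bp, 2624 bp from Mmp19 and over Tmem198b and the end of Dnajc14, held 3 of them. Locus 3 (128803548 to 128803772) was in the first 6 h library alone, with 5.47. Locus 4 (128803874 to 128804417) was only at 6 h, with 9.53 and 6.26. Locus 5 (128804572 to 128805763) was in all 4 libraries, with 11.7 and 4.39 at 6 h and 9.78 and 6.01 at 0 h. Locus 4 thus lies beside a locus called at both times, within the same stretch of H3K27ac. With peaks within 500 bp joined, the 25 loci became 22. Locus 4 was then part of the locus called in all 4 libraries, and of the loci near Mmp19 only locus 2 remained only at 6 h.

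The last loci near Mmp19 were at the ends of other genes. Locus 6 (128821633 to 128822174), at an end of Sarnp, was in all 4 libraries with 7.98 and 5.31 at 6 h and 7.67 and 7.27 at 0 h. Locus 1 (128747614 to 128748768), at an end of Pym1, had 6.59 in the first 6 h library, none in the second, and 7.58 and 6.79 at 0 h. Each lay in an H3K27ac peak, and the values of the times overlap at locus 6.

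The metalloproteinase inhibitors both carried H3K27ac next to the start of transcription and differed in GR. Timp1 (chromosome X, 20870166 to 20874737, plus strand) had 6 H3K27ac peaks in its window and no GR peak in any library. A peak of 343 bp (20870149 to 20870491) covered its start and another of 231 bp lay 122 bp upstream, both also inside Syn1, within which Timp1 lies. Over all genes, 7.80% had the mark in the window and no GR. The nearest GR locus was 86858 bp away (20961595 to 20962294), in all 4 libraries and in H3K27ac.

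Timp3 (chromosome 10, 86300412 to 86349505, plus strand), which lies within Syn3, had GR at its start. Its 1 locus (86300411 to 86300848) had 12.7 and 7.63 at 6 h and, at 0 h, no peak in the first library and 13.6 in the second. The times overlap. The summits lay 157 and 165 bp downstream of the start at 6 h and 170 bp downstream at 0 h, inside the H3K27ac peak that begins at 86300531. The 4 H3K27ac peaks of the window all lay inside the gene.

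The Timp3 peak of the second 0 h library ranked 830, at 8.53% of its list. Of the 834 peaks of that library ranked as high or higher, only 2 (0.240%) shared no locus with the first 0 h library, and Timp3, singled out after its values were seen, was 1 of them. The nearest peak of the first 0 h library was 278098 bp away. Without the second 0 h library the locus would count as only at 6 h, and without the first as called in every library left.

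Taking the windows as a whole, 15 of the 25 loci (60.0%, 95% Wilson interval 40.7 to 76.6) lay in H3K27ac, beside 74.4% of all loci (73.7 to 75.0). By class these were 5 of the 6 loci in all 4 libraries, 2 of the 4 only at 6 h and 8 of the other 15. Over all loci the shares were 98.4%, 39.3% and 70.8% in the same classes. Intervals cover counting error only, and loci of a window are not independent. H3K27ac was present in the windows of 7 of the 8 members, all but Mmp2, beside 75.4% of all genes. Of the 32 H3K27ac peaks of the windows, 13 (40.6%) held a GR locus, beside 36.1% of all H3K27ac peaks.

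Only 8 of the 25 loci lay over a member, at Plat (2), Plau (1), Serpine2 (4) and Timp3 (1), and none over Plaur, Mmp2, Mmp19 or Timp1. Over all genes, 47.1% had a GR locus inside the gene or within 1 kb, beside 4 of the 8 members. Another 11 loci lay over a different protein-coding gene and 6 in none, and for 14 loci another gene was nearer than the member. Plat and Plau had GR but no H3K27ac inside the gene or within 1 kb, which 1.60% of all genes showed. Serpine2 and Timp3 had both, Timp1 had H3K27ac alone, as did 9.88% of all genes, and Plaur, Mmp2 and Mmp19 had neither. The GR loci at Plat were called by the first 6 h library alone. These combinations were not among the planned results.

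The rest of the pathway was described from a list of 45 genes of the plasminogen system, the metalloproteinases and their inhibitors and activators, all found. Of these, 8 had a locus only at 6 h in the window, 0 a locus only at 0 h and 18 a locus in all 4 libraries, or 17.8%, 0% and 40.0%, beside 16.5%, 6.78% and 45.5% of all genes. In the plasminogen system 4 of 16 had a locus only at 6 h and 6 of 16 a locus in all 4. Among the other metalloproteinases these were 2 and 8 of 21, and among the inhibitors and activators 2 and 4 of 8.

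The loci of that list closest to a gene lay over Serpinb6a, an intracellular serpin, Lrp1, an endocytic receptor that clears protease and inhibitor complexes, Mmp14, a membrane-bound metalloproteinase that activates the Mmp2 product, Bsg, an inducer of metalloproteinases, and Ctsl, the gene of the lysosomal protease cathepsin L. The Mmp14 locus (chromosome 14, 54431281 to 54432154) was in all 4 libraries, with 11 and 5.41 at 6 h and 6.80 and 6.07 at 0 h. The Lrp1 locus (chromosome 10, 127604552 to 127604834) was only at 6 h, with 8.56 and 5.56. Serpinb6a had a locus of each kind, with 7.15 and 6.44 only at 6 h and, in all 4 libraries, 14.9 and 8.98 at 6 h and 12 and 12.4 at 0 h. Ctsl had 11.8 and 9.17 at 6 h and 11.7 and 12.8 at 0 h.

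At each locus named from this list of 45 genes and called in all 4 libraries, the second 6 h library gave the lowest value. The median fold enrichment of its whole list was also the lowest, 6.89 beside 7.34 to 7.89 in the other GR lists. The next genes by distance were Mmp11 at 1323 bp, Mmp28 at 9914 bp, Timp2 at 10406 bp and F12 at 17625 bp, each with a locus in all 4 libraries, and Furin, whose protease activates several metalloproteinases, at 13365 bp with a locus only at 6 h (13.2 and 9.08). All of the loci named from this list lay in H3K27ac. Over all loci, 98.4% of those in all 4 libraries and 39.3% of those only at 6 h lay in the mark. Unlike Mmp2, Mmp14 had both GR and the mark at the gene.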

How the data were processed

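Reads were aligned with Bowtie2 2.4.5 to mm10 and MACS2, of unstated version, called the peaks, according to the submitters' processing notes. The authors deposited a separate list for each library. Each GR peak has a score (10 times the −log10 p-value), a fold enrichment (a ratio over the caller's background), −log10 p-value and −log10 q-value and a summit, all the authors' values, used only to describe or rank peaks within a list. For H3K27ac the deposited list has positions only.

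Unplaced contigs were left out (Python 3.11.15, pandas 2.3.3). Loci are unions of GR peaks that share at least 1 bp, and the same minimum applied to H3K27ac. Gene spans came from RefSeq on GRCm38.p6, whose coordinates are those of mm10. The table gives no strand or exons, so exons were not separated from introns. The promoter table gave start and strand for 4 of the 8 members. Differences in peak number were tested by exact permutation of the libraries. Shares have 95% Wilson intervals. Merging, classes and window counts were checked on simulated data. The rule for named loci took all loci of windows with up to 4, and otherwise the best ranked of each class and the nearest. The rest were named after their values were seen. The members and lists were chosen with earlier results of these data known. The alternatives left out each library, used the stronger 50% or an equal number of peaks, merged across 500 bp, changed the window to 10 or 100 kb, required 50% overlap with H3K27ac and paired replicate numbers.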

Additional observations from a re-analysis of the deposited data

How the results depend on the processing

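The difference of 3.5 GR peaks in the 8 windows ranged from −2.5 to 9.5 with 1 library left out and turned to −1.0 with 9726 peaks in each list. It kept its sign in the other settings, and was 5.0 with loci called counted in place of peaks, an alternative chosen after seeing the data. Members with a locus only at 6 h ranged from 2 to 4 with 1 library left out and numbered 1 in a window of 10 kb. Members with a locus only at 0 h ranged from 0 to 2 with 1 library left out and numbered 1 with the stronger 50% of each list and 1 with equal lists. Serpine2 was among them in each case, joined by Mmp19 without the first 6 h library. Each class has fewer conditions with 3 libraries, so these counts can rise by construction. Members with a locus in all 4 libraries ranged from 4 to 5 with 1 library left out, and numbered 2 with the stronger 50% and 2 in the window of 10 kb. The share of window loci in H3K27ac ranged from 60.0% to 70.0% with 1 library left out and was 76.9% with the stronger 50% of each list, 54.55% with peaks within 500 bp merged and 50% in the window of 10 kb. The replicate numbers do not pair the samples by any label. Across 5012 loci in all 4 libraries, same-numbered libraries deviated with a correlation of 0.0293, and with the replicate block the difference stayed 3.5 peaks (exact sign-flip p = 1.0).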

Other observations

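The window counts of Plau and Mmp19, the members with the most loci only at 6 h, were set beside those of all other genes, by the distance over log2(peaks + 1) in the 4 GR libraries and the H3K27ac library. Pla1a, which encodes a phospholipase, had the same counts as Plau, with 7 and 4 GR peaks at 6 h, 2 and 2 at 0 h and 8 H3K27ac peaks. Kmt2c and Wnk4 followed, both at a distance of 0.17. The genes closest to Mmp19 were its neighbours Tmem198b (0.416) and Pym1 (0.455), which share peaks with it, and Cited2 (0.471).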
